A study of Homo sapiens with 16 samples.

Results

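The contactins and the adhesion molecules that act with them on axons are given here as 10 genes, CNTN1 to CNTN6, CNTNAP1, CNTNAP2, L1CAM and NRCAM, out of 57736 genes counted in human embryonic stem cells during neural differentiation. They were chosen by name, with values of the same libraries in view, so their own levels and fold changes are a description and carry no test. The established H9 line of human embryonic stem cells was taken through dual SMAD inhibition, in which LDN193189 and SB431542 block BMP and TGF-beta signalling so that the cells take a neural fate. RNA was collected from undifferentiated cells on day 0 (D0) and from cultures on days 12, 30 and 70 (D12, D30 and D70). At each stage 2 cultures had received 40 µM Thiamet-G (TMG), an inhibitor of the enzyme O-GlcNAcase that raises O-GlcNAc on proteins, and 2 had received the solvent DMSO, which gave 8 groups and 16 libraries. All groups come from 1 cell line, so the spread between libraries is between cultures and not between donors.

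Contactins are immunoglobulin-type cell surface proteins that are held in the membrane by a lipid anchor and have no cytoplasmic part. They bind partners on the same or the neighbouring cell, among them CNTNAP1 and CNTNAP2, transmembrane proteins of the neurexin superfamily, and L1CAM and NRCAM, transmembrane proteins of the L1 family that attach to ankyrin. In neurons these complexes are known for axon growth, bundling and guidance, and later for the junctions on both sides of the node of Ranvier in myelinated axons.

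The 250 bases before the transcription start site are shown for 3 members that differ in their response on D30. CNTN2 and CNTN4 had the largest differences between TMG and DMSO on D30, while CNTN6 had almost none. The sequences are from RefSeq (GRCh38.p14) and were located by exact match in GRCh37, at chr1:205012090-205012339 for CNTN2, chr3:2140300-2140549 for CNTN4 and chr3:1134458-1134707 for CNTN6, all on the plus strand and written 5′ to 3′. Capitals mark matches to the E-box CANNTG, the motif of basic helix-loop-helix factors, which reads alike on both strands.
CNTN2: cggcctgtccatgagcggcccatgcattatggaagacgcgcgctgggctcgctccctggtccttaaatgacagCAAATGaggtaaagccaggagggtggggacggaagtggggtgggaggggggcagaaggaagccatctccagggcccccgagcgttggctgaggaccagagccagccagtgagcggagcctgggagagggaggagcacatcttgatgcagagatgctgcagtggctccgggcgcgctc
CNTN4: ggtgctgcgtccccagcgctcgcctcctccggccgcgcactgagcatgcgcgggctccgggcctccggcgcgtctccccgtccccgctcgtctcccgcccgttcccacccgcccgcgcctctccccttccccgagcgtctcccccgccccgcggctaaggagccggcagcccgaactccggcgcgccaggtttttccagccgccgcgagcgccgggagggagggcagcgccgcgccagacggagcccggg
CNTN6: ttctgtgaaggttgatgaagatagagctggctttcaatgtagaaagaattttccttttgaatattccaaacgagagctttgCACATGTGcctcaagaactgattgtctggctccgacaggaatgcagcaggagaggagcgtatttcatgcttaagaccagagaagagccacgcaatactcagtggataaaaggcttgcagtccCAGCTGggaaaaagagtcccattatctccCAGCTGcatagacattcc
CNTN2 had 1 match, CNTN4 had 0, and CNTN6 had 4, of which 2 were CAGCTG and the first 2 overlap. Windows of this kind were found for all 10 members, and 5 of them (50%) held CANNTG, against 61.8% of 35116 promoter windows of the same length. CAGCTG was found in 2 members (14.0% of all windows) and CAGATG in 1 (12.2%). The GC content ran from 45.2% in CNTN6 to 81.6% in CNTN3, and was 79.2% in CNTN4 and 64.4% in CNTN2, against a mean of 57.2% over all windows. For CNTN1 and L1CAM the start site of the window lies 135745 and 10158 bases from that of the annotated canonical transcript.

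In GRCh37, CNTN2 (ENSG00000184144) spans bases 205012065 to 205047417 of chromosome 1 with 23 exons in its canonical transcript. CNTN4 (ENSG00000144619) spans 2140497 to 3099643 of chromosome 3 with 25 exons, and CNTN6 (ENSG00000134115) lies on the same arm, from 1134342 to 1445901, with 23 exons. CNTN1 (ENSG00000018236) spans 41086241 to 41466217 of chromosome 12, and CNTN5 (ENSG00000149972) 98891679 to 100229616 of chromosome 11. CNTNAP2 (ENSG00000174469) is the longest locus, from 145813094 to 148118090 of chromosome 7, and NRCAM (ENSG00000091129) lies on the same chromosome from 107788068 to 108097161. CNTN3 (ENSG00000113805) spans 74311719 to 74663810 of chromosome 3, CNTNAP1 (ENSG00000108797) 40834549 to 40852011 of chromosome 17 and L1CAM (ENSG00000198910) 153126969 to 153151627 of chromosome X. Exons of genes on the opposite strand overlap those of CNTN4 (CNTN4-AS1), CNTNAP1 (CCR10) and L1CAM (L1CAM-AS1). Exons of AL583832.1 overlap CNTN2, those of DUTP3 CNTNAP2 and those of ENSG00000284987 L1CAM on the same strand, and ENSG00000267765 lies opposite CNTNAP1. The library kit named in the methods, NEBNext Ultra II RNA, is not the directional form and does not mark strand. Reads from the shared parts of exons on opposite strands therefore cannot be told apart by strand. For the pairs on the same strand, strand would not separate such reads in any case.

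Library totals ran from 10334908 to 19836878 counts, and groups were read from the titles of the libraries. For 8 libraries, DMSO replicate 2 and TMG replicate 1 of each stage, the separate treatment tag names the other arm, so that by the tag every replicate 1 library would be a control and every replicate 2 library would be TMG. The short descriptions mark the libraries D or T along the same line as the titles. Every difference between TMG and DMSO below rests on the titles. The summed level of 6 stem cell markers was 3228 to 3697 CPM (counts scaled to the same size of library) in the D0 libraries and 1.90 to 3.47 CPM on D70. The summed level of 10 neuron markers was already 320 to 413 CPM on D0, and it was 545 to 921 CPM on D12. It was 582 to 1136 CPM on D30 and 247 to 1318 CPM on D70. Some libraries stood apart. The sum of 6 mesenchyme markers, among them COL1A1 and LUM, was 29730 CPM in TMG replicate 2 of D30 and 4343 to 5594 CPM in the other 3 libraries of that stage. On D70 it was 45310 and 59510 CPM in the replicate 2 libraries of DMSO and TMG and 7333 and 3678 CPM in the replicate 1 libraries, where 4 choroid plexus markers summed to 10030 and 3025 CPM against 228 and 14.5 CPM. In bulk RNA, fewer cells of a type and less RNA per cell cannot be told apart.

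The first question was how the members are expressed as control cells differentiate. On D0 the transmembrane partners and L1CAM were already present, while CNTN3, CNTN4, CNTN5 and CNTN6 were near the bottom of the range, and all 4 had a higher mean on D12. CNTN3, which binds protein tyrosine phosphatase receptors, had 0.927 and 2.59 CPM in the DMSO libraries of D0, 8.45 and 8.49 at D12, 25.8 and 50.1 by D30 and 61.7 and 52.5 by D70. Its libraries did not overlap between any of these consecutive stages. Over all genes tested, 33.4% were higher and 33.2% lower without overlap from D0 to D12. The shares were 28% and 31.4% from D12 to D30, and 24% and 22.4% from D30 to D70. CNTN6, also called NB-3 and known from cerebellar and cortical circuits, had 0.185 and 0.769 CPM on D0, 6.34 and 10.1 at D12, 24.4 and 22.4 by D30 and 11.6 and 16.4 by D70. It was highest on D30 in both control libraries. The log2 fold change was 4.11 (SE 0.54) from D0 to D12 and 1.51 (0.44) from D12 to D30.

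CNTN4, also called BIG-2 and studied for its part in olfactory and retinal wiring, had 3.03 and 3.29 CPM on D0, 12.8 and 22.9 at D12, 14.9 and 22.0 by D30 and 20.1 and 42.0 by D70 in control cells. The step from D0 to D12 was 2.50 (SE 0.54) on the log2 scale, and the levels of D12, D30 and D70 overlapped. CNTN5, or NB-2, was the last to appear. It had 0 counts in both control libraries of D0, 2 and 13 at D12, 8 and 8 by D30 and 105 and 249 by D70, which are 6.75 and 20.04 CPM at that last stage. A count of 0 allows a limit of 3 counts over the group. Against that limit, CNTN5 was at least 3.95-fold higher on D12 and at least 5.32-fold higher on D30 than on D0. The D12 bound rests on the library with 13 counts, since the other held 2. All 10 members passed the filter on low counts, CNTN5 through libraries of the later stages.

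CNTN2, also called TAG-1 or axonin-1, a protein of early projecting axons, went up and down. Control cells had 12.1 and 12.2 CPM on D0, 34.2 and 63.5 at D12, 12.1 and 15.9 by D30 and 22.2 and 81.9 by D70. The D12 libraries lay above those of D0 and of D30, and the D70 libraries lay above those of D30. The shares of all genes given with CNTN3 apply to each of these steps. CNTN1, or contactin/F3, a partner of CNTNAP1 at paranodal junctions, had 24.7 and 9.09 CPM on D0, 4.96 and 9.09 at D12, 18.1 and 10.8 by D30 and 15.8 and 98.9 by D70. Of its D12 libraries, 1 was the lowest of the control libraries and the other equalled the lower D0 library to the digits given. The mean of 57.3 CPM on D70 rests on 1 of the 2 libraries.

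CNTNAP1, or Caspr, had 34.5 and 30.9 CPM on D0 and between 72.8 and 93.6 CPM in the 6 control libraries of the later stages. CNTNAP2, or Caspr2, which gathers potassium channels on the axon, had 118 and 145 CPM on D0, 298 and 371 at D12, 285 and 326 by D30 and 286 and 40.8 by D70. The control libraries of D70 lay close together for CNTNAP1 and far apart for CNTNAP2. L1CAM, the founding member of its family, had 77.2 and 57.9 CPM on D0 and 36.98 to 49.4 CPM in the 6 later control libraries, so that every later library was below both of D0. Over all genes, 33.2% were lower without overlap on D12 than on D0, and 36.9% on D30 than on D0. NRCAM, a cell adhesion molecule of axon initial segments and nodes, had 14.95 and 13.7 CPM on D0, 21.4 and 23.0 at D12, 37.3 and 17.4 by D30 and 65.4 and 96.3 by D70, where it was above all earlier libraries. From D30 to D70, 24% of all genes were higher without overlap.

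Across the whole table, edgeR called 6.97% of genes higher and 9.71% lower on D12 than on D0 when the false discovery rate was held at 5%. Of the 10 members, 4 were called higher (CNTN3, CNTN4, CNTN6 and CNTNAP1) and 0 lower, and their median log2 fold change was 1.67 (1.66 with CNTN5 at its bound), against 0.0033 over all 24249 genes tested. From D12 to D30 it called 1.91% higher and 1.69% lower, with 1 member (CNTN3) higher and 0 lower. From D30 to D70 it called 0.305% higher and 0.0784% lower, with 0 members in either direction. From D0 to D30 it called 14% higher and 16.7% lower, with the same 4 members as from D0 to D12 higher and 0 lower. DESeq2 called 6 members higher from D0 to D12, CNTN3 and CNTN6 higher and CNTN2 lower from D12 to D30, and CNTN2 and CNTN5 higher from D30 to D70. Fits by edgeR of only the libraries compared called 6 members higher from D0 to D12, and 2 higher and 1 lower from D12 to D30. Without the filter on low counts, edgeR called 0 members from D12 to D30. Nothing is read from these counts, because the members were chosen on these libraries. When 1 library was left out, CNTN6 and CNTNAP1 were called from D0 to D12 in each of 4 fits and CNTN3 and CNTN4 in 1 fit each, and CNTN3 was called from D12 to D30 in 0 of 4.

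The order of the members was compared per kilobase of the canonical transcript (CPM per kb), since only that scale allows levels of different genes to be set side by side. In control cells CNTNAP2 was first at each stage by its mean, with 13.9 CPM per kb on D0 and 35.4, 32.3 and 17.3 at the later stages, and CNTN5 was last at each stage. On D70 the first place of CNTNAP2 rests on replicate 1, with 30.2 CPM per kb. In replicate 2 it had 4.32, below CNTN1 (17.45) and CNTNAP1 (14.9) among others. On D0, CNTNAP2 (12.5 and 15.3 CPM per kb) and L1CAM (15.02 and 11.3) overlapped, and CNTNAP1 followed with 6.23 and 5.57. On D12 the first places went to CNTNAP2, CNTNAP1 (13.1 and 15.6) and L1CAM (9.03 and 9.61), and these did not overlap. CNTN2 came next with 4.32 and 8.02 and overlapped CNTN4 with 2.49 and 4.45. On D30, CNTN3 stood in place 4 and CNTN2 in place 9, with 1.53 and 2.01 CPM per kb, and each neighbour from L1CAM down to CNTN2 overlapped the next. In the TMG libraries of D30, CNTN4 stood in place 3 by its mean of 15.2 CPM per kb and CNTN2 in place 7 with 6.97 and 8.90, and from CNTNAP1 down to CNTN2 all neighbours overlapped. On D70 neighbours overlapped at all places in control cells except between CNTNAP1 and NRCAM.

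**Figure D1:**
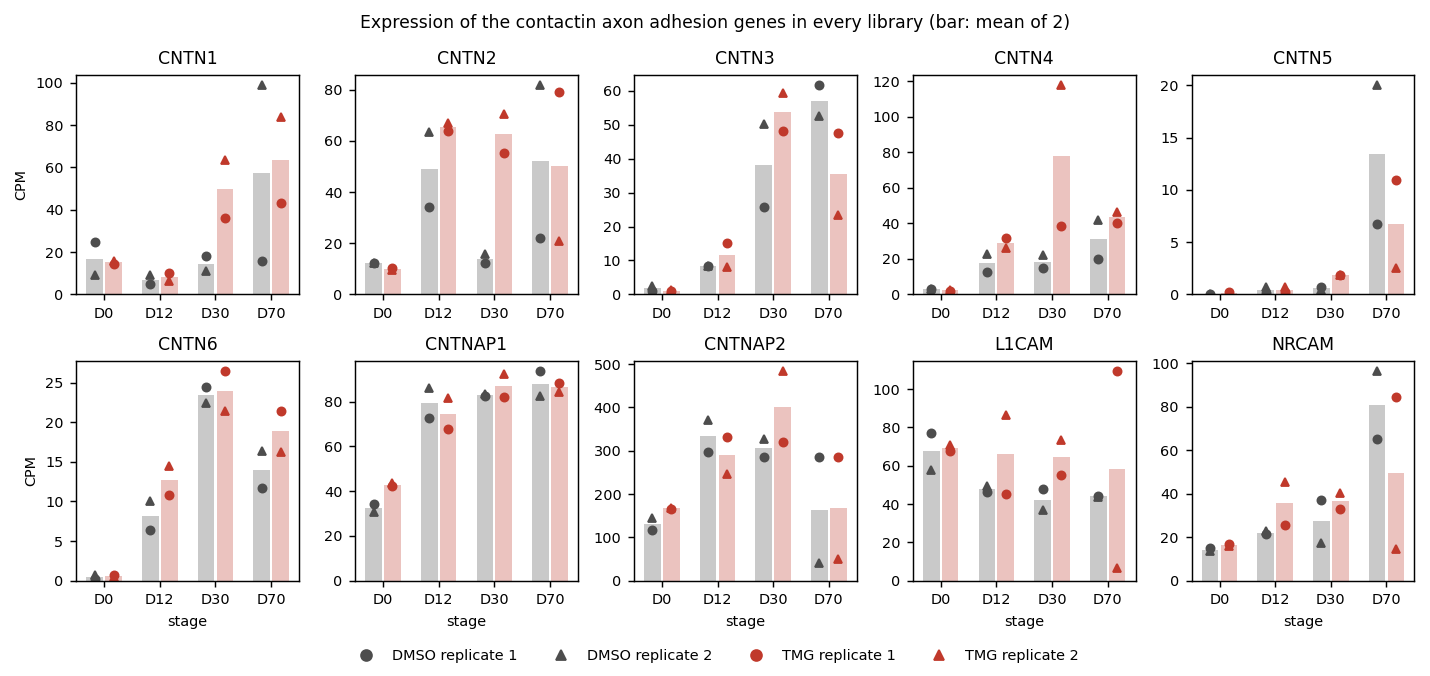
CPM of each member (y axis, from 0) by stage (x axis) in DMSO (grey) and TMG (red), with circles for replicate 1, triangles for replicate 2 and bars for the mean of 2 libraries. On D30 both TMG libraries of CNTN2 (55.2 and 70.4 CPM) lie above both DMSO libraries (12.1 and 15.9 CPM), and on D70 the 2 replicates of CNTNAP2 lie far apart in both arms.

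The second question was what TMG did to the members at each stage. On D30 all 10 members had a higher mean in TMG than in DMSO. The differences were large for CNTN2, CNTN4 and CNTN1 and near 0 for CNTN6 and CNTNAP1. CNTN2 had 12.1 and 15.9 CPM in DMSO and 55.2 and 70.4 CPM in TMG, a log2 fold change of 2.16 (SE 0.65), or 4.47-fold. The TMG libraries were within the range of the D12 control libraries, 34.2 to 63.5 CPM, or above it. CNTN4 had 14.9 and 22.0 CPM in DMSO and 38.4 and 118 CPM in TMG, with a log2 fold change of 2.08 (SE 0.51). CNTN1 had 18.1 and 10.8 CPM in DMSO and 36.3 and 63.4 CPM in TMG, with a log2 fold change of 1.79 (SE 0.77). For these 3 genes no TMG library overlapped a DMSO library.

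CNTN5 had 8 and 8 counts in the DMSO libraries of D30 and 19 and 20 in TMG, which are 0.752 and 0.402 CPM against 1.85 and 1.89 CPM (log2 fold change 1.73, SE 1.10). L1CAM had 47.7 and 36.98 CPM in DMSO and 55.4 and 73.5 CPM in TMG (0.61, SE 0.81). Both were without overlap. The standard error of L1CAM was larger than its difference, but edgeR estimates the spread of a gene over all 8 groups and not from D30 alone. For L1CAM the log2 difference of replicate 2 minus replicate 1 was -0.37 in DMSO and 0.41 in TMG on D30. In TMG on D70 it was -3.97. The other 5 overlapped between the arms. CNTN3 had 25.8 and 50.1 CPM in DMSO and 48.1 and 59.4 CPM in TMG. NRCAM had 37.3 and 17.4 CPM against 33.2 and 40.2 CPM, and CNTNAP2 had 285 and 326 CPM against 319 and 483 CPM. CNTN6 with 24.4 and 22.4 CPM against 26.4 and 21.4 CPM, and CNTNAP1 with 82.5 and 83.4 CPM against 81.9 and 92.5 CPM, had log2 fold changes of 0.03 (SE 0.43) and 0.07 (SE 0.16).

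The median log2 fold change of the members on D30 was 0.55, against 0.0113 over all genes tested, and it was 0.36 without TMG replicate 2 and 0.94 without DMSO replicate 1. Of the members, 5 had all TMG libraries above all DMSO libraries, where 23.1% of all genes did, and 0 had them all below, where 21% did. edgeR called 0% of genes on D30, and so 0 members, although 7.1% of genes were higher and 4.89% lower at an unadjusted p under 0.05. DESeq2, fitted to the same libraries, called 3.06% of the genes to which it gave an adjusted p on D30, and CNTN2 and CNTN4 were among them.

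The library with many mesenchyme transcripts, TMG replicate 2 of D30, held the highest level at that stage of all 10 members except CNTN6. Without it the log2 fold change was 1.97 for CNTN2, 1.33 for CNTN1, 1.05 for CNTN4, 1.71 for CNTN5 and 0.06 for CNTNAP2, and 9 of 10 members stayed higher, CNTNAP1 being at -0.02. The summed neuron markers were also higher in both TMG libraries, with 876 and 1136 CPM against 582 and 710 CPM in DMSO. The 4 peripheral neuron markers (62.2 and 41.6 CPM against 19.4 and 30.5 CPM) and the 4 astrocyte markers (6.61 and 12.02 CPM against 3.76 and 5.42 CPM) were higher too. The 7 oligodendrocyte markers summed to 344 CPM in TMG replicate 2, where 3 of them had no count, and to 56.6 to 108 CPM in the other 3 libraries. The 5 neural progenitor markers were lower, with 727 and 539 CPM against 841 and 766 CPM. The part of these lists in the differences was not tested beyond these values. Without TMG replicate 1 instead, CNTN2 was at 2.32 and CNTN4 at 2.67. edgeR then called CNTN4 among 217 genes.

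**Figure D2:**
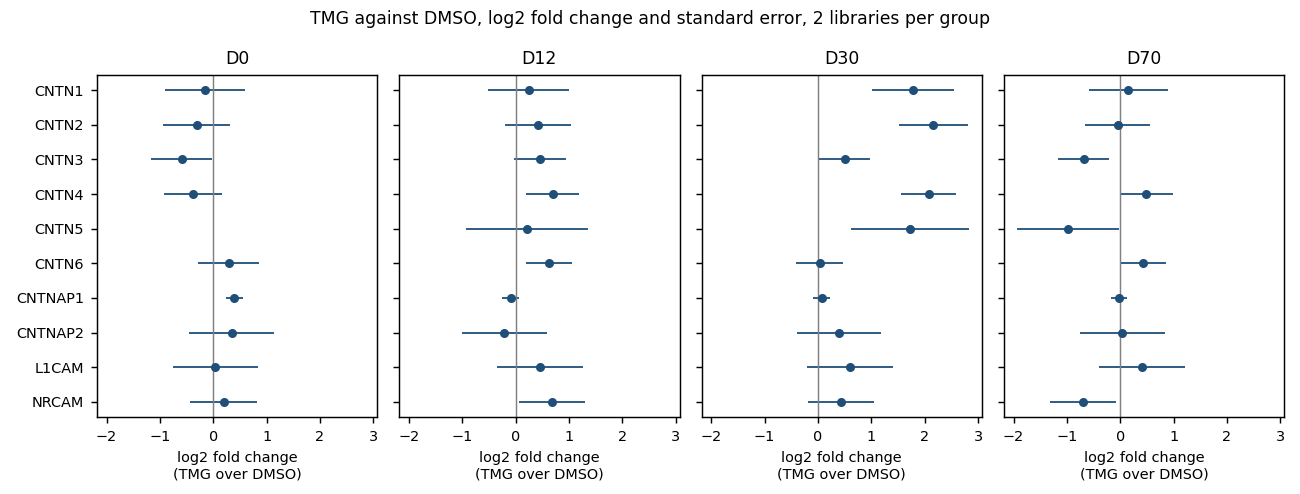
Log2 fold change of TMG over DMSO (x axis) for each member (y axis) at each stage, with standard errors from edgeR as bars, 2 libraries per group. The standard errors use the spread of each gene over all 8 groups, not that of the stage shown. CNTN1, CNTN2 and CNTN4 stand at 1.79, 2.16 and 2.08 on D30 and between -0.38 and 0.69 at the other stages. CNTN5 is not drawn on D0, where it had 3 counts in all.

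At the other stages the differences of CNTN1, CNTN2 and CNTN4 were smaller, while others, such as CNTN6 and NRCAM on D12, CNTN3 and NRCAM on D70 and CNTNAP1 on D0, differed by more than on D30. On D0, CNTN2 had 12.1 and 12.2 CPM in DMSO and 10.2 and 9.38 CPM in TMG, and CNTN4 had 3.03 and 3.29 CPM against 2.06 and 2.78 CPM, so that both were lower in TMG without overlap. CNTNAP1 (34.5 and 30.9 CPM against 42.1 and 43.5 CPM), CNTNAP2 (118 and 145 CPM against 166 and 168 CPM) and NRCAM (14.95 and 13.7 CPM against 16.9 and 15.97 CPM) were higher without overlap. Over all genes, 19.7% were higher and 16.9% lower without overlap on D0. CNTN5 had 3 counts in 1 TMG library and 0 elsewhere on D0, so no fold change is given. Without it, the median log2 fold change of the other 9 members was 0.04.

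On D12, CNTN2 (34.2 and 63.5 CPM in DMSO, 63.9 and 66.9 CPM in TMG), CNTN4 (12.8 and 22.9 CPM, 31.8 and 26.0 CPM), CNTN6 (6.34 and 10.1 CPM, 10.9 and 14.5 CPM) and NRCAM (21.4 and 23.0 CPM, 25.8 and 45.4 CPM) were higher in TMG without overlap. Over all genes, 17.8% were higher and 16.5% were lower in this way. The log2 fold changes of these 4 genes were between 0.42 for CNTN2 and 0.69 for CNTN4, each with a standard error of 0.44 to 0.62. The median of all 10 members was 0.44, and it was 0.19 without DMSO replicate 1 and 0.74 without DMSO replicate 2. The neural progenitor markers were lower in both TMG libraries of D12, with 1033 and 653 CPM against 1249 and 1047 CPM in DMSO, and the peripheral neuron markers were higher, with 43.4 and 48.96 CPM against 42.3 and 31.5 CPM. The neuron markers overlapped between the arms, with 765 and 921 CPM in TMG against 545 and 866 CPM in DMSO. The astrocyte markers overlapped too, with 2.60 and 10.6 CPM against 1.82 and 5.97 CPM. TMG replicate 2 of D12 had the highest sum of mesenchyme markers at that stage, 1831 CPM. The sum of the 7 oligodendrocyte markers was higher in both TMG libraries, with 219.2 and 649.7 CPM against 180.8 and 218.2 CPM in DMSO. Of the 7 genes, 1 and 2 had no count in these TMG libraries and 0 and 2 in the DMSO libraries. The D0 libraries already summed to 106.5 to 128.4 CPM, so the sum is not read as a sign of oligodendrocytes. The part of these lists was not tested.

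On D70 the means of 5 members were higher and those of 5 lower in TMG, and the median of their log2 fold changes was 0.0057. CNTN3 was lower without overlap, with 61.7 and 52.5 CPM in DMSO and 47.4 and 23.3 CPM in TMG, at a stage where 9.77% of all genes were higher and 12.4% lower without overlap. L1CAM had 44.1 and 43.9 CPM in DMSO, but 109 CPM in TMG replicate 1 and 6.84 CPM in TMG replicate 2. These TMG libraries were the highest and the lowest of all 16 for L1CAM, and its log2 fold change was 0.40 (SE 0.80), or -2.68 without TMG replicate 1. NRCAM (65.4 and 96.3 CPM in DMSO, 84.6 and 14.8 CPM in TMG) and CNTN2 (22.2 and 81.9 CPM, 79.3 and 20.8 CPM) were also spread widely. Without TMG replicate 1, which leaves the library with the most mesenchyme transcripts, the median of the members was -1.31, and edgeR called 801 genes, with L1CAM and NRCAM lower among them. Each of the other 3 libraries left out in turn gave a median between -0.26 and 0.22 and called 0 members.

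The replicate 1 and replicate 2 libraries of D70 differed in several members. CNTNAP2 had 286 and 285 CPM in the replicate 1 libraries of DMSO and TMG and 40.8 and 49.8 CPM in the replicate 2 libraries. CNTN1 went the other way, with 15.8 and 43.1 CPM in replicate 1 and 98.9 and 83.7 CPM in replicate 2. CNTN2, CNTN5 and NRCAM were lower in replicate 1 than in replicate 2 in DMSO and higher in TMG. The 5 neural progenitor markers summed to 605 and 802 CPM in the replicate 1 libraries and to 528 CPM (DMSO) and 97.7 CPM (TMG) in the replicate 2 libraries, and the 10 neuron markers to 1233 and 1318 CPM and to 631 and 247 CPM. Their part in the levels of the members was not tested.

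**Figure D3:**
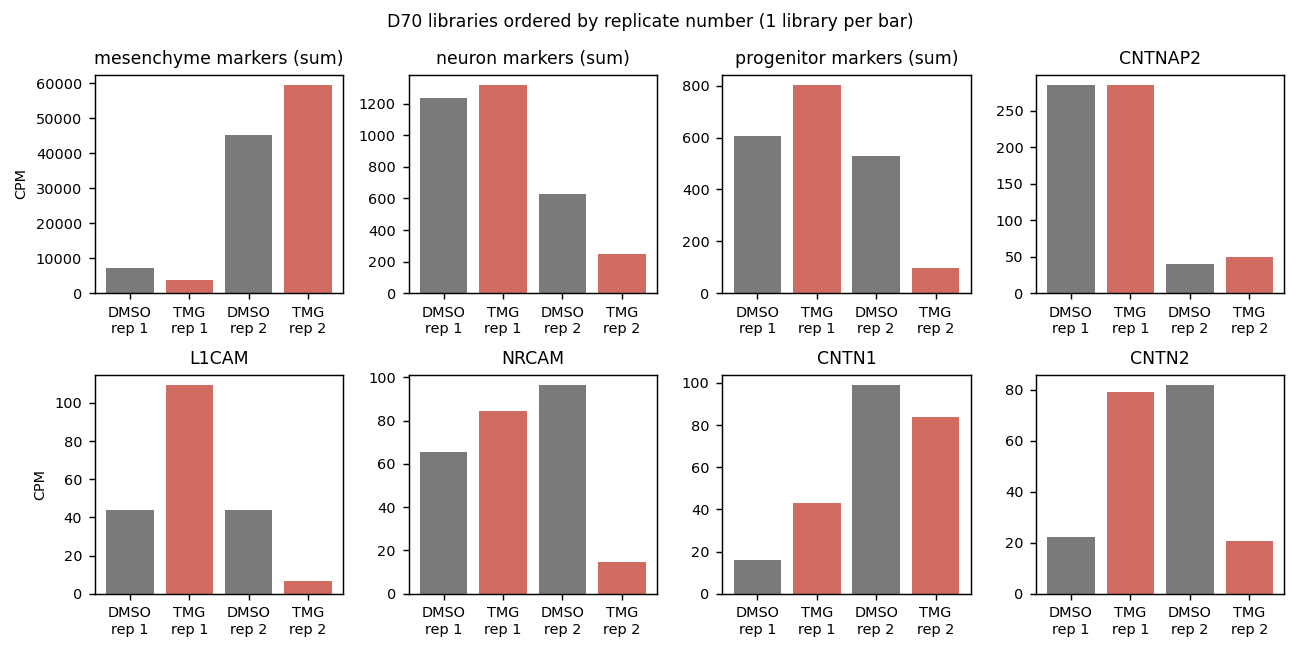
CPM (y axis, from 0) in the 4 libraries of D70, ordered by replicate number, for 3 summed marker lists and 5 members, with DMSO in grey and TMG in red and 1 library per bar. The mesenchyme sum is 45310 and 59510 CPM in the replicate 2 libraries, in which CNTNAP2 is at 40.8 and 49.8 CPM.

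edgeR called 0% of genes between TMG and DMSO on D0, D12 and D70 as well. At an unadjusted p under 0.05, 0.367% of genes were higher and 0.895% lower on D0, 1.54% and 0.936% on D12, and 2.61% and 2.88% on D70. DESeq2 called 0.0206% of genes on D0, 0.0454% on D12 and 0.296% on D70, with 0 members among them at each of these stages.

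The test of whether the TMG effect itself differed between stages passed for 0 of 24249 genes in each of 6 pairs of stages by edgeR, with 260 to 1197 genes at an unadjusted p under 0.05, so no member's effect is shown to be particular to D30. The difference of the log2 fold changes of D30 and D0 was 2.47 (SE 0.90) for CNTN2 and 2.45 (SE 0.74) for CNTN4. That of D70 and D30 was -2.21 (SE 0.88) and -1.59 (SE 0.70). That of D30 and D12 was smaller, at 1.74 (SE 0.88) and 1.39 (SE 0.70).

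A list of 27 partner genes of the contactins, written from general knowledge but with earlier results of these data known, was tested in the same fits. All 27 passed the filter. On D30, edgeR called 0 of 27 with a false discovery rate of 5%. At an unadjusted p under 0.05, 11 of 27 were higher (7.1% of all genes) and 0 lower (4.89%), and 17 were higher and 2 lower without overlap of libraries (23.1% and 21% of all genes). Their median log2 fold change was 0.93 on D30, or 0.80 without KCNA2, which had 2 counts over the DMSO libraries. Without TMG replicate 2, the library rich in mesenchyme transcripts, 3 partner genes (2.23% of all genes) were higher at an unadjusted p under 0.05. Without DMSO replicate 1 it was 4 (3.44%), without DMSO replicate 2 it was 5 (5.27%), and without TMG replicate 1 it was 12 (9.63%). On D0, 0 partner genes were past an unadjusted p of 0.05 in either direction, on D12 NRP1 and EPB41L3 were higher, and on D70 ANK3 was. Libraries did not overlap for 5 partner genes that were higher and 2 that were lower on D0 (19.7% and 16.9% of all genes). The counts were 6 and 4 on D12 (17.8% and 16.5%) and 2 and 2 on D70 (9.77% and 12.4%).

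By family, CHL1 and NFASC, the other genes of the L1 family, were higher on D30 in both TMG libraries. CHL1 had 34.9 and 62.5 CPM in DMSO and 72.0 and 138 CPM in TMG (log2 fold change 1.11, SE 1.57). NFASC, whose protein neurofascin pairs with the CNTN1 and CNTNAP1 complex, had 29.7 and 35.2 CPM in DMSO and 68.9 and 98.2 CPM in TMG (1.36, SE 0.44, adjusted p = 0.271 by edgeR). Among the relatives of CNTNAP2, CNTNAP5 had 0.564 and 1.61 CPM in DMSO and 15.5 and 22.2 CPM in TMG (4.05, SE 1.51, adjusted p = 0.331 by edgeR). It was the relative with the largest fold, and on D70 a single TMG library held 102 CPM while the other held 0.925 CPM. CNTNAP4 had 2.07 and 1.96 CPM in DMSO and 5.34 and 5.96 CPM in TMG. CNTNAP3 was lower in TMG, with 63.3 and 79.9 CPM against 62.6 and 40.8 CPM, and CNTNAP3B, with 25.3 and 43.1 CPM against 43.5 and 50.4 CPM, was higher. The last pair are near-identical copies whose reads the estimated counts divide, so their opposite signs are uncertain.

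The binding partners higher at an unadjusted p under 0.05 on D30 were PTPRG, a phosphatase receptor that binds contactins, the matrix protein TNR (tenascin-R), the guidance ligand SEMA3A and its receptor NRP1. The scaffold and channel genes were ANK2 and SPTBN1, which form the ankyrin and spectrin membrane skeleton, EPB41L3, which links CNTNAP proteins to it, and the potassium channel subunits KCNA1 and KCNA2. With NFASC and CNTNAP5 these make up the 11. DESeq2 called CNTNAP5, EPB41L3 and KCNA1 on D30 (adjusted p of 0.0369, 0.0477 and 0.0383), while edgeR gave EPB41L3 an adjusted p of 0.227 and KCNA1 of 0.238. EPB41L3 had 36.8 and 31.0 CPM in DMSO and 54.2 and 78.2 CPM in TMG, and KCNA1 had 2.16 and 1.36 CPM against 4.27 and 6.15 CPM. The proteases ADAM10 and BACE1, which shed surface proteins such as L1CAM (ADAM10) and neuregulin (BACE1), had log2 fold changes of -0.37 (SE 0.26) and 0.12 (SE 0.21).

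**Figure D4:**
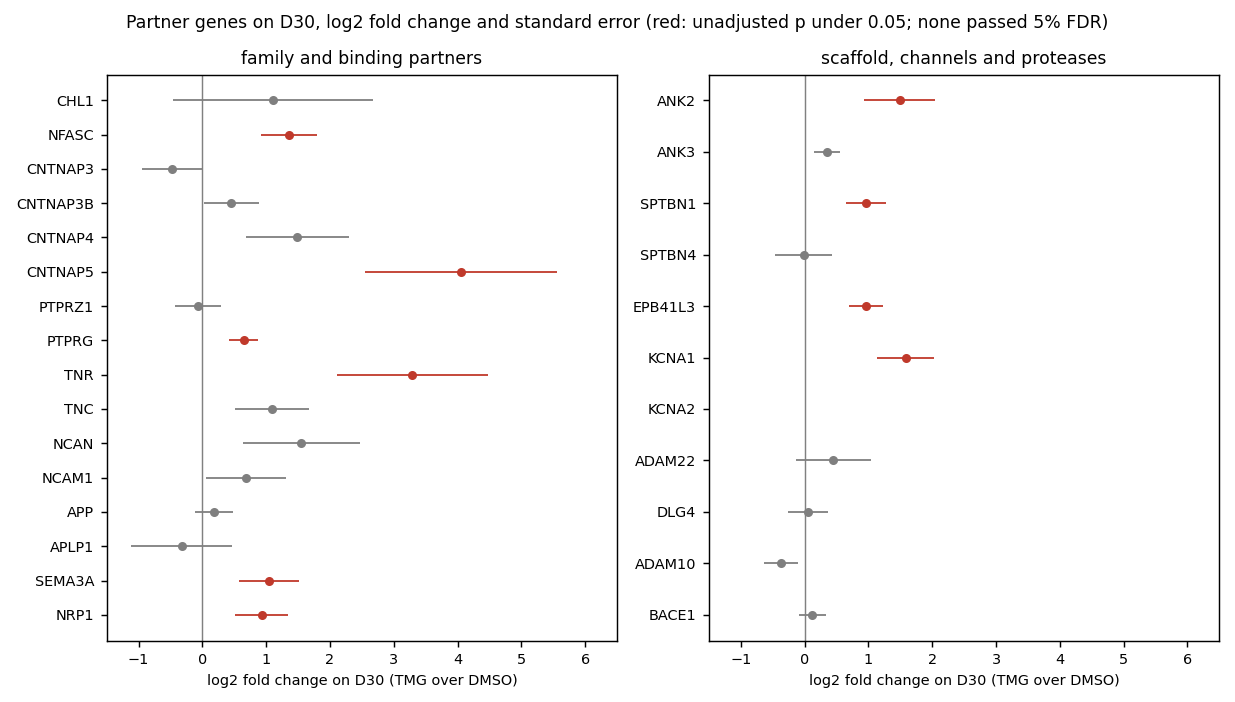
Log2 fold change of TMG over DMSO on D30 (x axis) with standard errors from edgeR for the partner genes (y axis), 2 libraries per group, with genes at an unadjusted p under 0.05 in red. The standard errors use the spread of each gene over all 8 groups. The 10 red genes lie to the right of 0, and KCNA2 is not drawn because its DMSO libraries held 2 counts.

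Between stages in control cells, 4 of 27 partner genes rose and 2 fell from D0 to D12 with a false discovery rate of 5% (edgeR), against 6.97% and 9.71% of all genes. NRP1 rose (log2 fold change 2.43, SE 0.45, adjusted p = 0.00647 by edgeR), as did KCNA1 (1.58, adjusted p = 0.0341), DLG4, a postsynaptic and juxtaparanodal scaffold (1.07, adjusted p = 0.0414), and BACE1. PTPRZ1, a receptor phosphatase that binds CNTN1 and is found on neural progenitor and glial cells, fell from 1168 and 654 CPM to 170 and 147 CPM (-2.53, SE 0.38, adjusted p = 0.00258 by edgeR). PTPRG fell with it, from 519 and 384 CPM to 179 and 189 CPM (-1.30, adjusted p = 0.00471). With 1 library left out, the number of partner genes called was 2 to 4.

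From D12 to D30, TNC, the matrix protein tenascin-C (2.63, SE 0.61, adjusted p = 0.0425 by edgeR), and EPB41L3 (1.21, adjusted p = 0.0377) rose and KCNA1 fell (-1.90, adjusted p = 0.0454). From D30 to D70 KCNA1 rose (2.55, adjusted p = 0.0482). In control cells KCNA1, like CNTN2, was lower on D30 than on D12 and D70, at 2.16 and 1.36 CPM against 5.55 and 7.50 CPM on D12 and 11.3 and 9.18 CPM on D70. These comparisons share the D30 control libraries with that of TMG and DMSO on D30. None of these 4 calls was made when any single library of the comparison was left out. From D0 to D30, 4 of 27 partner genes rose and 3 fell, against 14% and 16.7% of all genes. NRP1 (4.15, adjusted p = 0.000284 by edgeR) and TNC (3.55, adjusted p = 0.00243) rose, and PTPRZ1 (-2.96, adjusted p = 0.000476) and PTPRG (-2.09, adjusted p = 0.000221) fell. CNTNAP4 was called higher on 2 counts over the D0 libraries and 61 over those of D30. BACE1 was the other that rose and SPTBN1 the other that fell. In the same control libraries the mesenchyme markers summed to 153 and 160 CPM on D0, 1046 and 1189 CPM on D12 and 4343 and 5170 CPM on D30. The neuron markers summed to 320 and 413, 545 and 866, and 582 and 710 CPM. The part of these lists in the changes of members and partner genes between stages was not tested.

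The levels of CNTN2 in the 16 libraries were then compared with those of 15646 other genes, as log2 CPM minus its mean over the libraries. The 5 nearest by root mean square difference were EBF3, a transcription factor of early neurons, at 0.48, THSD7A at 0.54, MDGA2, a lipid-anchored immunoglobulin protein of synapses, at 0.56, IGSF11, an immunoglobulin-type adhesion molecule, at 0.57, and KALRN at 0.57. EBF3 had group means of 4.66 CPM in DMSO and 21.8 CPM in TMG on D30, and THSD7A had 16.7 and 63.2 CPM. Both had more on D12 than on D0 in control cells, 16.9 against 4.04 CPM and 33.8 against 11.6 CPM. The other members were farther from CNTN2 than these, with NRCAM at 0.88, CNTNAP1 at 0.91 and CNTN4 at 1.00, up to CNTN5 at 1.77. Over all genes compared, NRCAM, CNTNAP1 and CNTN4 stood at percentiles 1.7, 2.6 and 7.6 of this distance, and CNTN1, CNTN6, CNTN3 and CNTN5 at 74.4 to 87.2. The distance is not scaled to how far a gene moves, so a low percentile need not mean the same changes. CNTNAP1 had a log2 fold change of 0.07 between TMG and DMSO on D30, against 2.16 for CNTN2. The genes are ranked by these same libraries, so their likeness is a description.

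**Figure D5:**
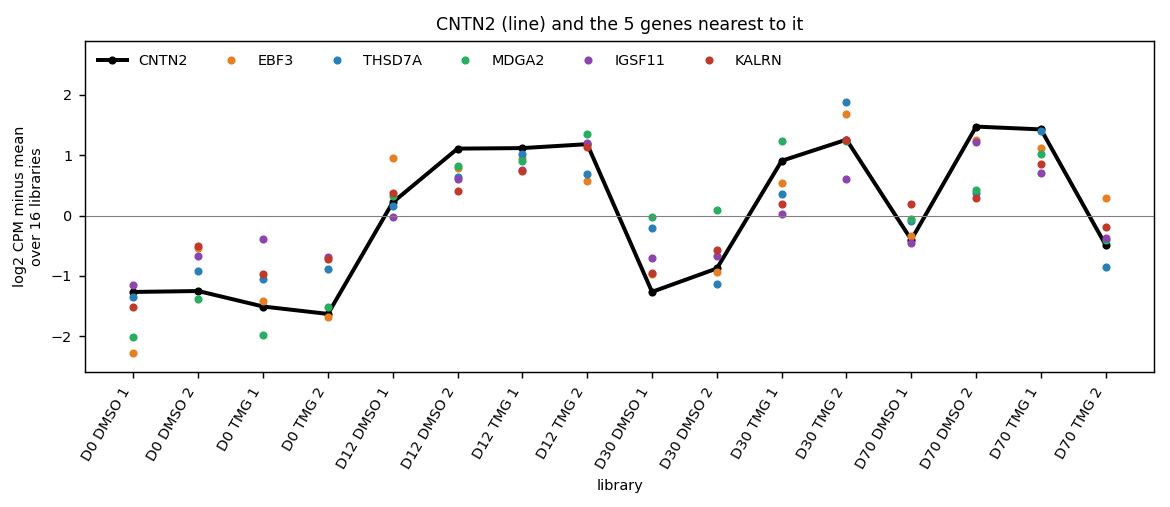
Log2 CPM minus the mean over 16 libraries (y axis) in each library (x axis) for CNTN2 (black line) and the 5 genes nearest to it (points). CNTN2 lies above 0 on D12, in both TMG libraries of D30 and in 2 of the 4 libraries of D70. The root mean square differences of the 5 genes from it are 0.48 to 0.57. In DMSO replicate 2 of D70, THSD7A, MDGA2 and KALRN lie lower, at 0.38, 0.42 and 0.29 against 1.48 for CNTN2.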

How the data were processed

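RNA-seq of 16 libraries was analysed. Per the labels and methods, rRNA-depleted libraries were aligned by the authors with Bowtie2 to hg19 and the estimated counts of RSEM 1.2.12 on Ensembl GRCh37 genes were deposited without normalization, as whole numbers. RSEM divides reads that fit several genes, which affects near-identical copies. Symbols were matched to 55501 of 57736 genes, and 14593 genes had no count. Chi-square per degree of freedom between replicates was 29.1 to 181, so the 2 libraries of each group differed by more than counting noise. Totals are given in the report.

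For CPM, TMM-adjusted library sizes were used, and CPM per kb divides them by the canonical transcript length (GENCODE v44lift37). edgeR 4.0.16 (R 4.3.3) fitted 1 mean for each of 8 groups with the robust quasi-likelihood F-test, 8 residual degrees of freedom and filterByExpr (minimum count 10, total 15), with Benjamini-Hochberg adjustment over 24249 genes. Standard errors come from the fold change and its F statistic, so they carry the spread of a gene over all 8 groups. The fits were also run on simulated counts drawn with the spread that edgeR had fitted. The outcome is not given here, and nothing is read from that run. Log2 CPM for nearness used a prior count of 2, among tested genes with a group mean of at least 5 CPM. Named were all members, partner genes past 5% (at most 5 per comparison by fold) and the family genes, and the 5 genes nearest to CNTN2; other partner genes were named after their values were seen. The members and lists were chosen with earlier results of these data known. Marker lists were stem cell, neural progenitor, neuron (NEFL was not matched), mesenchyme, choroid plexus, oligodendrocyte (56.6 to 650 CPM summed over 7 genes), astrocyte (1.82 to 73.1 CPM over 4) and peripheral neuron (1.65 to 66.1 CPM over 4). Alternatives were RLE normalization, no filter, DESeq2 1.42.0, replicate blocks, only the libraries compared, and each library left out. A biological replicate is a culture of H9 cells.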

Additional observations from a re-analysis of the deposited data

Results flagged for a closer look

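Some genes were higher in both TMG libraries than in both DMSO libraries at one stage and lower in both at another. The stages were compared by edgeR's test of the difference, which passed for 0 of 24249 genes in any of 6 pairs of stages, with 260 to 1197 genes at an unadjusted p under 0.05, so these are opposite signs and not tested differences that held. CNTN2 had log2 fold changes of -0.31 on D0, 0.42 on D12 and 2.16 on D30, and CNTN4 of -0.38, 0.69 and 2.08. KCNA1 had -0.99 on D0 and -0.65 on D70, but 0.62 on D12 and 1.58 on D30. PTPRG had -0.29 on D12, 0.64 on D30 and -0.17 on D70. NCAN, a chondroitin sulphate proteoglycan of the neural matrix, had -1.12 on D12 and 1.55 on D30. DLG4 had 0.092 on D0 and -0.18 on D12. Groups of 2 libraries were not tested for single libraries that stand apart.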

How the results depend on the processing

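No value of a member called by edgeR changed sign under an alternative run. Uncalled values did, among them CNTN6, CNTNAP1 and NRCAM on D30 (-0.13, -0.02 and -0.02 without 1 library) and L1CAM on D70, which went from 0.40 to -2.68 and was called lower without TMG replicate 1. Of the members' single fold changes, 61 moved by more than the spread between replicates and 259 did not when 1 library was left out, and 1 moved and 439 did not under other settings. The 17 calls of partner genes between stages were followed gene by gene. Of their values under alternatives, 120 stayed past the threshold and 33 did not. The block within each stage and the counts of partner genes at an unadjusted p were added after the data had been seen. The cause of each shift below was not tested.

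Between TMG and DMSO edgeR called 0 genes at each stage. Without the filter it called 1 on D0, 21 on D30 and 3 on D70, and DESeq2 called 5 on D0, 11 on D12, 598 on D30 (with 3 partner genes) and 55 on D70. The labels share only replicate numbers between groups, with correlations of replicate differences of 0.045, 0.367, 0.223 and 0.607 at the 4 stages in order. A replicate block called 0 genes for TMG and 184 from D30 to D70, and a block within each stage called 233 on D30 and 1 on D70.

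Between stages in DMSO, edgeR called 4045 genes (6 partner genes) from D0 to D12, 874 (3) from D12 to D30, 93 (1) from D30 to D70 and 7429 (7) from D0 to D30. Fits of only the libraries compared called 5894 genes (14 partner genes) from D0 to D12, 3332 genes and 8 partner genes from D12 to D30, 1 gene and 0 partner genes from D30 to D70, and 9613 genes and 15 partner genes from D0 to D30. DESeq2 called 2491 genes (6 partner genes) from D12 to D30, 1717 (7) from D30 to D70 and 8591 (12) from D0 to D30. Without the filter 331 genes and 2 partner genes were called from D30 to D70.

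With 1 library left out, where the lone library is assumed to vary like the other groups, TMG calls ranged from 0 to 217 genes on D30 and from 0 to 801 on D70 (0 to 3 partner genes), and partner genes at an unadjusted p from 3 to 12 on D30. The median of the members ranged from -0.0448 to 0.234 on D0, from 0.186 to 0.739 on D12, from 0.363 to 0.941 on D30 and from -1.31 to 0.223 on D70. From D0 to D12, 1125 to 1890 genes and 2 to 4 partner genes were called (median 1.33 to 1.89), from D12 to D30 0 to 227 and 0 (median -0.14 to 0.439), from D30 to D70 0 to 189 and 0 (median 0.105 to 1.08), and from D0 to D30 3746 to 4572 and 5 to 7 (median 1.25 to 1.36). CNTN5 on D0 and D12 is limited by depth, with at most 13 counts per library.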
